A study of Mus musculus with 14 samples.

Results

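Fbxo2, Ccer2, Sstr5, Lix1, Vps50, Esd and Cryzl2 are 7 genes of the 34452 mouse genes counted in the retinal pigment epithelium (RPE) of rd1 mice, and they were picked because their counts were higher after Nrf2 delivery although none belongs to the classical antioxidant set. Their levels in the Nrf2 and the control eyes chose them, so the values below describe them and no test is given for them. They do not form a pathway. All 7 passed the filter on low counts, and each is a protein-coding gene.

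In every one of 7 rd1 mice (FVB/N strain, which loses its rods through a mutation in Pde6b), the subretinal space of one eye received AAV-Best1-Nrf2 together with AAV-Best1-GFP, and the fellow eye received AAV-Best1-GFP alone. These are called Nrf2 and control eyes, and both were collected at postnatal day 20 (P20). The human Best1 promoter directs expression to the RPE, and the Nrf2 vector carries the human gene, so its transcript (NFE2L2) is counted apart from mouse Nfe2l2. Both eyes of a mouse thus carry the same genotype and a GFP vector, and the Nrf2 eye received a further vector in place of which the labels name none for the fellow eye. The RNA was purified from the supernatant after the eyecup, freed of its retina, had been put in a stabilising solution, and it was amplified before sequencing. In such bulk samples fewer cells of a type and less RNA per cell cannot be told apart. The labels name 7 individuals, while the study's text gives another number of paired replicates for this comparison.

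Nrf2 is a transcription factor that Keap1 normally delivers to the proteasome. Once stabilised, it pairs with small Maf proteins and binds antioxidant response elements, and it is known for raising genes of glutathione synthesis, quinone reduction and detoxification, a defence that matters in the RPE with its high oxygen and light load. Most of the 7 genes described here have other roles, and Esd and Cryzl2 belong to enzyme families that act on reactive compounds. Fbxo2 is the glycan-reading subunit of an SCF ubiquitin ligase and binds high-mannose glycoproteins; Vps50 is the subunit that defines the EARP complex, which tethers vesicles at recycling endosomes; Sstr5 is a somatostatin receptor that couples to inhibitory G proteins. Esd (esterase D) hydrolyses S-formylglutathione, the second step of glutathione-dependent formaldehyde clearance, and Cryzl2 belongs to the medium-chain reductases related to zeta-crystallin. Lix1 was named for its expression in the limb bud, and Ccer2 for a coiled coil rich in glutamate.

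The genes lie on 6 chromosomes (GRCm38). Fbxo2 (ENSMUSG00000041556) is at chr4:148160621-148166424, Ccer2 (ENSMUSG00000096257) at chr7:28756174-28758968, Vps50 (ENSMUSG00000001376) at chr6:3498382-3603531, Esd (ENSMUSG00000021996) at chr14:74732297-74750765 and Cryzl2 (ENSMUSG00000033488) at chr1:157458577-157492638, each on the + strand. Chromosome 17 holds both Lix1 (ENSMUSG00000047786) on the + strand at chr17:17402672-17459387 and Sstr5 (ENSMUSG00000050824) on the - strand at chr17:25489875-25497288. Of the 7 genes, 6 had a promoter of 300 bases in the RefSeq table (GRCm38.p6), spanning 250 bases before the start and 50 after it; Sstr5 was not among them. Each window was searched on both strands for TGACNNNGC, the core of the antioxidant response element, and for the stricter form TGANTCAGC, with matches that fit both counted under both. Of 32851 promoters in the table, 12.4% held the core and 1.19% the stricter form. Among the 6 windows, Lix1 held 1 core match and the other 5 held none, and no window held the stricter form. The Lix1 match was TGACTGAGC on the + strand, 34 to 26 bases before the start in the RefSeq window. That start differs from the gene start given above, which is from GENCODE. A match is a run of letters, and its absence says only that these letters are not in this window. The promoters of Lix1 (chr17:17402436-17402735, + strand, core match in capitals), Fbxo2 (chr4:148160418-148160717, + strand) and Ccer2 (chr7:28755924-28756223, + strand) are shown because they hold, in turn, the single match and the starts of 2 of the genes with the steepest differences. Capitals in Fbxo2 mark the 138 bases that separate it from its divergent neighbour Fbxo44, described further on.
Lix1: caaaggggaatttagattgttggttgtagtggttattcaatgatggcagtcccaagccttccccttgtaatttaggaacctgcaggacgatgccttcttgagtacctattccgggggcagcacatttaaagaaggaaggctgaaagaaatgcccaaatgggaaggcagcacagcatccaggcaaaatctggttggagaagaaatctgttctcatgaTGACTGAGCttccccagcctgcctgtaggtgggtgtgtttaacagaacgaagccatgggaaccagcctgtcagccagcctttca
Fbxo2: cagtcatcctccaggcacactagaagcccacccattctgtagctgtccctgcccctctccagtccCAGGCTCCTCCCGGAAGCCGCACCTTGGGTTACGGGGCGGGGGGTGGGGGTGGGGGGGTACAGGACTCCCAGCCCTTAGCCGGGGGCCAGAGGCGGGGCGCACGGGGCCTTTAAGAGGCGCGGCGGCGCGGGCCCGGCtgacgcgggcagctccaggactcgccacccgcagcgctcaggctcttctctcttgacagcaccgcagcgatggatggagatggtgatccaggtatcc
Ccer2: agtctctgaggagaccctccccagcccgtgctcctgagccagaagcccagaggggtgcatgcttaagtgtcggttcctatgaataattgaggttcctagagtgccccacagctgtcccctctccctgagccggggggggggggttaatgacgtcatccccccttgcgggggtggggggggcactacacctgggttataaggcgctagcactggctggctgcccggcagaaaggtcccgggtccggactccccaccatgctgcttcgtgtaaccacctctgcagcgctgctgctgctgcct
These 3 windows differed in composition. G and C made up 69.0% of the Fbxo2 window, 63.3% of the Ccer2 window and 48.7% of the Lix1 window, beside a median of 52.7% over all promoters (quartiles 45.7% and 61.7%). Fbxo2 held 21 CpG dinucleotides, Ccer2 11 and Lix1 3, beside quartiles of 3 and 20 over all promoters.

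Library totals ran from 16548349 to 50543008 estimated counts, and levels are given as CPM, counts per 1000000 counts of the library. The NFE2L2 vector transcript checked the labels. It lay between 1163 and 8711 CPM in the Nrf2 eyes (median 5868) and between 1.12 and 1163 CPM in the control eyes (median 51.8). A pair of libraries stood apart: the control eye of mouse 3 (control 3) held 1163 CPM of the vector transcript, which its label does not foresee, and the Nrf2 eye of mouse 4 (Nrf2 4) held about as much, 1163 CPM. Whether these libraries were mixed with others was not tested. The ratio of means and the fitted fold change of each of the 7 genes are therefore given with and without mice 3 and 4. Leaving these mice out does not remove all vector transcript from the control eyes. Control 2 held 51.8 CPM and control 5 held 175 CPM, beside 1.12 CPM in control 1, 1.18 CPM in control 6 and 7.79 CPM in control 7. Pseudogenes took 2.55% of the counts in Nrf2 2 and 1.06% to 1.17% in the other libraries. Genes were compared between the eyes of the same mouse with edgeR's quasi-likelihood test, and a gene is called where its Benjamini-Hochberg adjusted p over all genes tested is under 0.05. Mouse Nfe2l2 had a fitted log2 fold change of 0.28 (SE 0.10, edgeR adjusted p = 0.20). Markers fitted the labelled tissue: 12 of 12 RPE markers were detected, with a summed level of 23298 to 32066 CPM in Nrf2 eyes and 18119 to 38278 CPM in control eyes, and 1 of the 12 was called lower in the Nrf2 eyes. Other cells were present too. Rod markers summed to 6.19 to 82.5 CPM in Nrf2 eyes and 18.8 to 419.8 CPM in control eyes (lower in the Nrf2 eye of 6 of 7 mice), cone markers to 11.3 to 73.0 and 30.8 to 898 CPM (lower in 7 of 7, with 2 of 6 genes called lower), and surface epithelium markers to 1984 to 21232 and 1857 to 49595 CPM (lower in 6 of 7). In control 5 and control 6 the surface epithelium sums of 31261 and 49595 CPM exceeded the RPE sums of 22488 and 18119 CPM. Inner retina markers summed to 714 to 1033 CPM in Nrf2 eyes and 537 to 1305 CPM in control eyes. That sum was lower in the Nrf2 eye of 2 of 7 mice, while the mean difference over these markers was lower in 6 of 7. By sum, endothelium markers were lower in 5 of 7 mice, fibroblast markers in 4 of 7 and immune cell markers in 4 of 7. No marker of these lists was at 0 in every library. Their part in the results was not tested, and the libraries were run in 2 sequencing runs that the labels do not assign, so no comparison within a run could be made.

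The 7 genes were higher in the Nrf2 eye in 49 of 49 comparisons between the eyes of one mouse, in the direction for which they were picked. All 7 were called in the fit over all genes, where 3.43% of 16289 genes were called (2.94% higher and 0.491% lower), and that share is given as background to a count that the choice of genes fixed. A difference above 0 in all 7 mice was found in 5.65% of the genes tested. The median fitted log2 fold change of the 7 genes was 3.00, beside -0.04 over all genes tested. Size varied widely among them: by fold change Ccer2 ranked 4 among the 16289 genes, Sstr5 8, Fbxo2 16, Lix1 88, Esd 202, Vps50 245 and Cryzl2 557. Cryzl2 is thus the gene to which the word steep applies least.

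**Figure D1:**
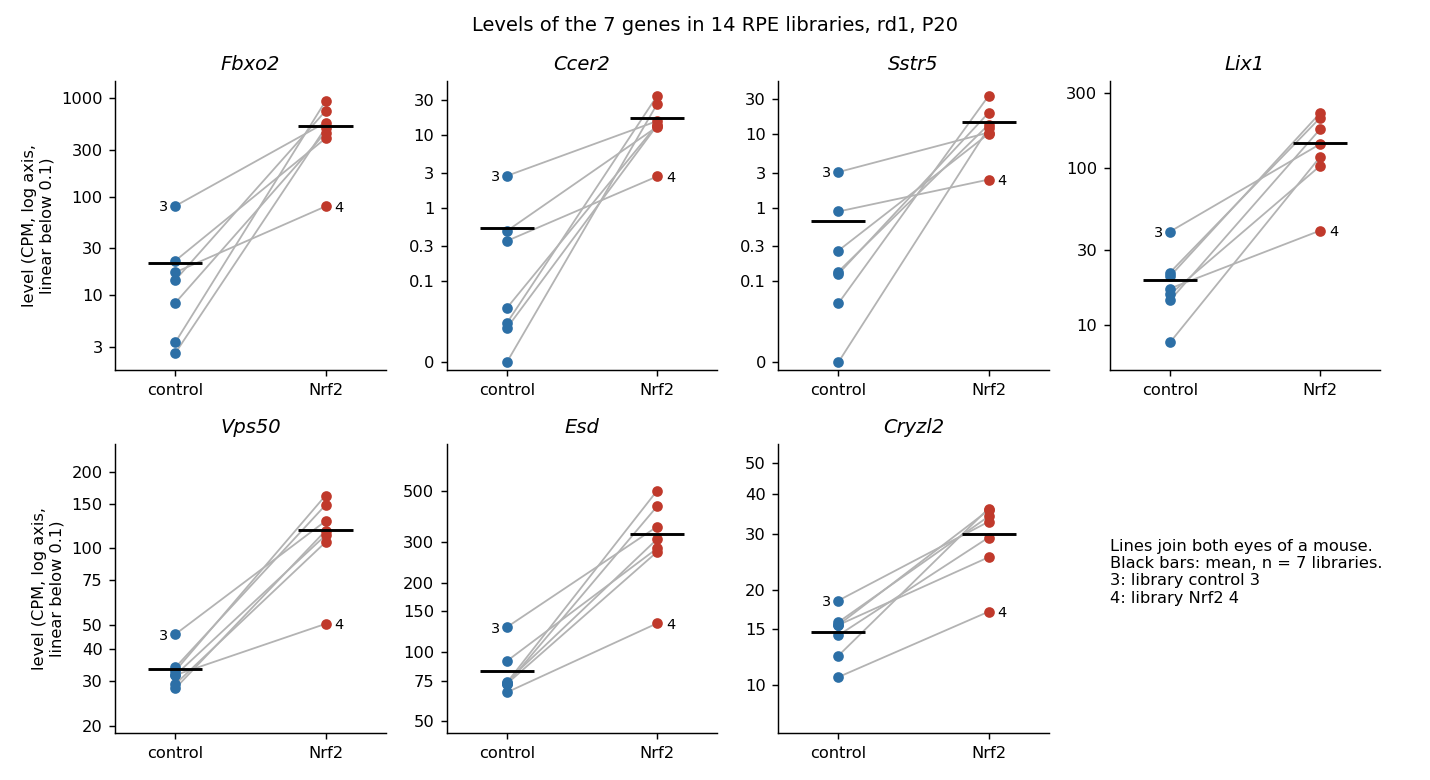
Level of each of the 7 genes in 14 libraries, in CPM on a log axis that is linear below 0.1, with control eyes in blue, Nrf2 eyes in red, grey lines joining the eyes of a mouse and black bars at the means (n = 7 libraries). Control 3 is the highest control library and Nrf2 4 the lowest Nrf2 library in each of the 7 panels.

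Fbxo2, the glycoprotein-binding F-box gene, had the highest mean CPM of the 7 in the Nrf2 eyes, though not in the control eyes. In the Nrf2 eyes it ran from 79.9 CPM (Nrf2 4) through a median of 500.1 to 934 CPM (Nrf2 7). In the control eyes it ran from 2.61 CPM (control 6) through a median of 14.4 to 80.8 CPM (control 3). The groups overlapped by that one pair of libraries, Nrf2 4 lying just under control 3, and the other 6 Nrf2 libraries, at 391 CPM and above, were far from any control library. The means were 523 ± 270.3 CPM and 21.3 ± 27.2 CPM (SD, n = 7), a ratio of 24.6, which became 58.9 without mice 3 and 4. Fitted on all mice, the log2 fold change was 5.30 (SE 0.86), and without these mice it was 6.33.

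Sstr5, the somatostatin receptor, was close to absent in the control eyes. Its level there ran from 0 CPM (control 6) through a median of 0.134 to 3.05 CPM (control 3), and 2 of the 7 control libraries held 3 counts or fewer. In the Nrf2 eyes it ran from 2.41 CPM (Nrf2 4) through a median of 12.2 to 33.4 CPM (Nrf2 7). Control 3 exceeded Nrf2 4, and no other libraries of the groups overlapped. Means were 14.6 ± 9.76 and 0.647 ± 1.10 CPM (SD, n = 7), a ratio of 22.5. Without mice 3 and 4 the control mean was 0.118 ± 0.0948 CPM (SD, n = 5) and the ratio 151. The fitted log2 fold changes were 5.72 (SE 1.19) and 7.33. In mouse 6, whose control eye had no count, a floor of 3 counts in that library put the Nrf2 eye at least 96.6-fold higher.

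Ccer2, the coiled-coil gene, was likewise nearly uncounted in most control eyes. The control eyes ran from 0 CPM (control 1) through a median of 0.0668 to 2.75 CPM (control 3), with 3 counts or fewer in 4 of 7 libraries. The Nrf2 eyes ran from 2.70 CPM (Nrf2 4) through a median of 13.8 to 34.2 CPM (Nrf2 7). Here too control 3 and Nrf2 4 crossed, with nearly equal levels, and the remaining libraries were apart. The means of 16.96 ± 10.2 and 0.535 ± 0.995 CPM (SD, n = 7) gave a ratio of 31.7. Without mice 3 and 4 the control mean was 0.128 ± 0.201 CPM (SD, n = 5) and the ratio 157. The fitted log2 fold change, 6.16 (SE 1.17) with all mice and 7.85 without these mice, was the largest of the 7 genes. For mouse 1, with no count in the control eye, the floor of 3 counts gave a level at least 352-fold higher in the Nrf2 eye. Ccer2 shares 718 bases with Nfkbib on the opposite strand, and whether the counting used strand is not stated in the sources used here. Nfkbib itself, a gene for an inhibitor of NF-kappaB, had a log2 fold change of 0.26 (SE 0.11, edgeR adjusted p = 0.28). It passed with voom (adjusted p = 0.036).

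Lix1, the limb-expression gene whose promoter holds the core match, was readily counted in both groups. It ran from 39.9 CPM (Nrf2 4) through a median of 141 to 222 CPM (Nrf2 7) in the Nrf2 eyes, and from 7.79 CPM (control 6) through a median of 17.1 to 39.4 CPM (control 3) in the control eyes. The groups did not overlap, but Nrf2 4 exceeded control 3 by little. The means were 144 ± 63.8 and 19.5 ± 9.86 CPM (SD, n = 7), a ratio of 7.38, or 10.3 without mice 3 and 4. In the fit, Lix1 had a log2 fold change of 3.00 (SE 0.33), and of 3.49 without them.

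Vps50, the EARP subunit, had the tightest control levels relative to its mean apart from Cryzl2. They ran from 28.1 CPM (control 6) through a median of 31.7 to 45.9 CPM (control 3). The Nrf2 eyes ran from 50.4 CPM (Nrf2 4) through a median of 117 to 162 CPM (Nrf2 7), so that the groups did not overlap. Means were 118 ± 35.8 and 33.4 ± 5.90 CPM (SD, n = 7), a ratio of 3.53 with all mice and 4.14 without mice 3 and 4. The fit gave log2 fold changes of 1.90 (SE 0.19) and 2.14 in turn.

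Esd, the S-formylglutathione hydrolase, was abundant in both groups. Control eyes ran from 66.8 CPM (control 4) through a median of 73.7 to 128 CPM (control 3), and Nrf2 eyes from 133 CPM (Nrf2 4) through a median of 308 to 499.8 CPM (Nrf2 7). No Nrf2 library fell under a control library, although Nrf2 4 stood only just above control 3. The means of 324 ± 118 and 82.8 ± 21.4 CPM (SD, n = 7) had a ratio of 3.92, or 4.65 without mice 3 and 4. This corresponded to a fitted log2 fold change of 2.03 (SE 0.23), and of 2.28 without these mice.

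Cryzl2, the zeta-crystallin-like reductase, moved least. Control eyes ran from 10.6 CPM (control 4) through a median of 15.5 to 18.5 CPM (control 3), and Nrf2 eyes from 17.03 CPM (Nrf2 4) through a median of 32.7 to 36.0 CPM (Nrf2 2). Control 3 lay above Nrf2 4, and the other 6 Nrf2 libraries lay above every control library. Means were 29.97 ± 6.85 and 14.7 ± 2.55 CPM (SD, n = 7), a ratio of 2.05, or 2.18 without mice 3 and 4. The fitted log2 fold change was 1.14 (SE 0.13), and 1.22 without them.

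Over all 7 mice the groups did not overlap for 3 of the genes (Lix1, Vps50 and Esd) and overlapped for 4. Of all genes tested, 1.04% had every Nrf2 library above every control library. Without mice 3 and 4 the groups were apart for all 7 of these genes, a pattern found in 4.44% of 16563 genes, and since the genes were picked on this contrast neither count is evidence about them.

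Per kilobase of exon, with the exons of all annotated transcripts of a gene joined, the order of mean levels changed between the groups. The joined length was 10856 bases over 9 transcripts for Vps50 and 3366 over 11 for Esd. It was 1288 bases for Fbxo2 and 1054 for Ccer2, with 1 transcript each. This length can exceed that of the transcript expressed, so the order of the genes within a group depends in part on the annotation. In the Nrf2 eyes Fbxo2 led with 406 ± 209.9 CPM per kb (SD, n = 7), ahead of Esd (96.3 ± 35.1), Lix1 (41.9 ± 18.6) and Ccer2 (16.1 ± 9.70). Cryzl2 (11.8 ± 2.70), Vps50 (10.9 ± 3.30) and Sstr5 (5.33 ± 3.57) followed in CPM per kb. The steps from Ccer2 to Cryzl2 and from Cryzl2 to Vps50 were smaller than the spread of these genes, so their order is not resolved. In the control eyes Esd stood first with 24.6 ± 6.36 CPM per kb, and Fbxo2 (16.5 ± 21.1), whose SD exceeds its mean, lay between Esd and Cryzl2 (5.78 ± 1.00). Lix1 (5.68 ± 2.87) was within its spread of Cryzl2, and Vps50 (3.07 ± 0.543), Ccer2 (0.508 ± 0.944) and Sstr5 (0.237 ± 0.403) were lowest in CPM per kb. Fbxo2 exceeded Esd per kilobase in 7 of 7 Nrf2 libraries and in 1 of 7 control libraries.

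Between mice, the difference between the eyes varied most in Ccer2, Sstr5 and Fbxo2, the genes with the largest mean differences. The paired differences in log2 CPM (prior count 2) averaged 5.89 ± 2.52 for Ccer2, 5.35 ± 2.64 for Sstr5 and 5.30 ± 2.19 for Fbxo2 (SD, n = 7 mice). They averaged 2.98 ± 0.93 for Lix1, 2.03 ± 0.64 for Esd, 1.89 ± 0.55 for Vps50 and 1.14 ± 0.28 for Cryzl2. For Ccer2 and Sstr5 the size depends on the prior count, because some control libraries had few counts: with a prior count of 0.5 the means became 6.55 and 5.89. Without mice 3 and 4 the mean differences were 7.14 ± 1.64 for Ccer2, 6.79 ± 1.19 for Sstr5, 6.34 ± 1.55 for Fbxo2, 3.49 ± 0.37 for Lix1, 2.28 ± 0.56 for Esd, 2.14 ± 0.29 for Vps50 and 1.22 ± 0.30 for Cryzl2 (SD, n = 5 mice). Mouse 4 and, mostly, mouse 3 kept a low place from gene to gene, while the order of the other mice varied: mouse 6 had the largest difference for Lix1 (3.88) and a low one for Cryzl2 (0.99). The median over the 7 genes was 1.39 in mouse 4 and 1.98 in mouse 3, then 2.86 in mouse 5, 3.54 in mouse 2, 3.54 in mouse 7, 3.61 in mouse 1 and 3.88 in mouse 6. Mice 3 and 4 gave the lowest 2 differences for every gene except Cryzl2, whose lowest were 0.85 in mouse 4 and 0.87 in mouse 5.

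**Figure D2:**
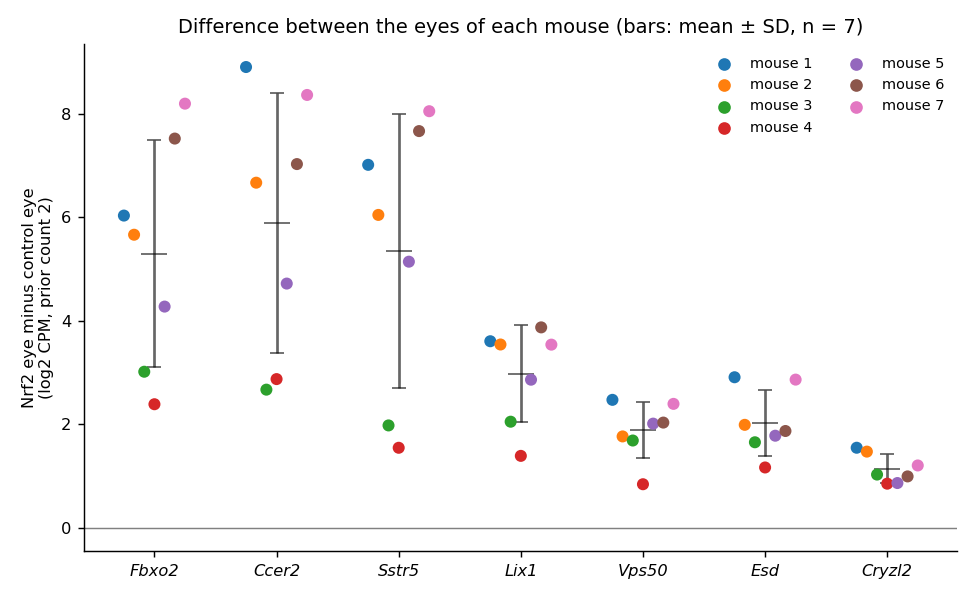
Difference between the Nrf2 and the control eye in log2 CPM (prior count 2) for each gene, 1 point per mouse, with the mean and SD over 7 mice as bars. Every point is above 0, and the points of mice 3 and 4 are the lowest 2 for each gene apart from Cryzl2.

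Likeness between genes was measured as the root-mean-square distance between their 7 paired differences, without centring, so that it reflects the size of the differences as well as how they varied among mice. Vps50 and Esd were closest, at 0.30 on the log2 scale, and Ccer2 and Cryzl2 farthest apart, at 5.22, beside mean differences of 5.89 and 1.14. Fbxo2 and Sstr5 were 0.73 apart. The outside genes with the smallest distance are given as a description, since all of them share the same libraries. They were Myod1 (0.38) and Brinp3 (0.86) for Fbxo2, Cyp1a1 (0.46) and Gstm1 (0.77) for Ccer2, and Myod1 (0.82) and Cyp1a1 (0.98) for Sstr5. Nearest to Lix1 were Tbcel (0.31) and Rida (0.36), nearest to Vps50 were Pgrmc1 (0.19) and Ephx1 (0.20), nearest to Esd were Cyb5a (0.16) and Prdx1 (0.17), and nearest to Cryzl2 were Tuba1c (0.20) and Phkb (0.25). These 14 places were held by 12 genes, as Myod1 and Cyp1a1 each appeared under 2 of the 7.

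The libraries that stood apart held intermediate levels of the 7 genes, as they did of the vector transcript. As a share of the distance from the mean of the control eyes of the 5 other mice to the mean of their Nrf2 eyes, control 3 lay at 11.9% to 21.8% over the 7 genes (median 15.7%), and Nrf2 4 at 11.7% to 19.99% (median 13.5%). The vector transcript itself lay at 16.9% in both. Across the Nrf2 eyes the vector transcript varied 7.49-fold. Over the same libraries the levels of Sstr5 varied 13.9-fold, of Ccer2 12.7-fold and of Fbxo2 11.7-fold, while those of Lix1 varied 5.57-fold, of Esd 3.76-fold, of Vps50 3.21-fold and of Cryzl2 2.11-fold. Divided by the vector transcript, Fbxo2 varied 1.59-fold, Lix1 1.63-fold and Ccer2 1.74-fold. The ratio varied 2.49-fold for Sstr5, 2.33-fold for Esd, 2.55-fold for Vps50 and 3.68-fold for Cryzl2, the gene for which dividing widened the range. Much of this range was 1 library: without Nrf2 4 the vector transcript varied 1.90-fold, Fbxo2 2.39-fold before and 1.43-fold after division, Ccer2 2.65-fold and 1.74-fold, Lix1 2.16-fold and 1.43-fold, and Cryzl2 1.42-fold and 1.54-fold. Sstr5 then varied 3.29-fold before and 2.49-fold after division, Vps50 1.53-fold and 1.36-fold, and Esd 1.84-fold and 1.25-fold. The order of the genes by how little the ratio varied thus changed with that library, Esd and Vps50 having the narrowest ratios without it. Nrf2 7 held the highest level of 6 of the genes and Nrf2 2 that of Cryzl2.

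**Figure D3:**
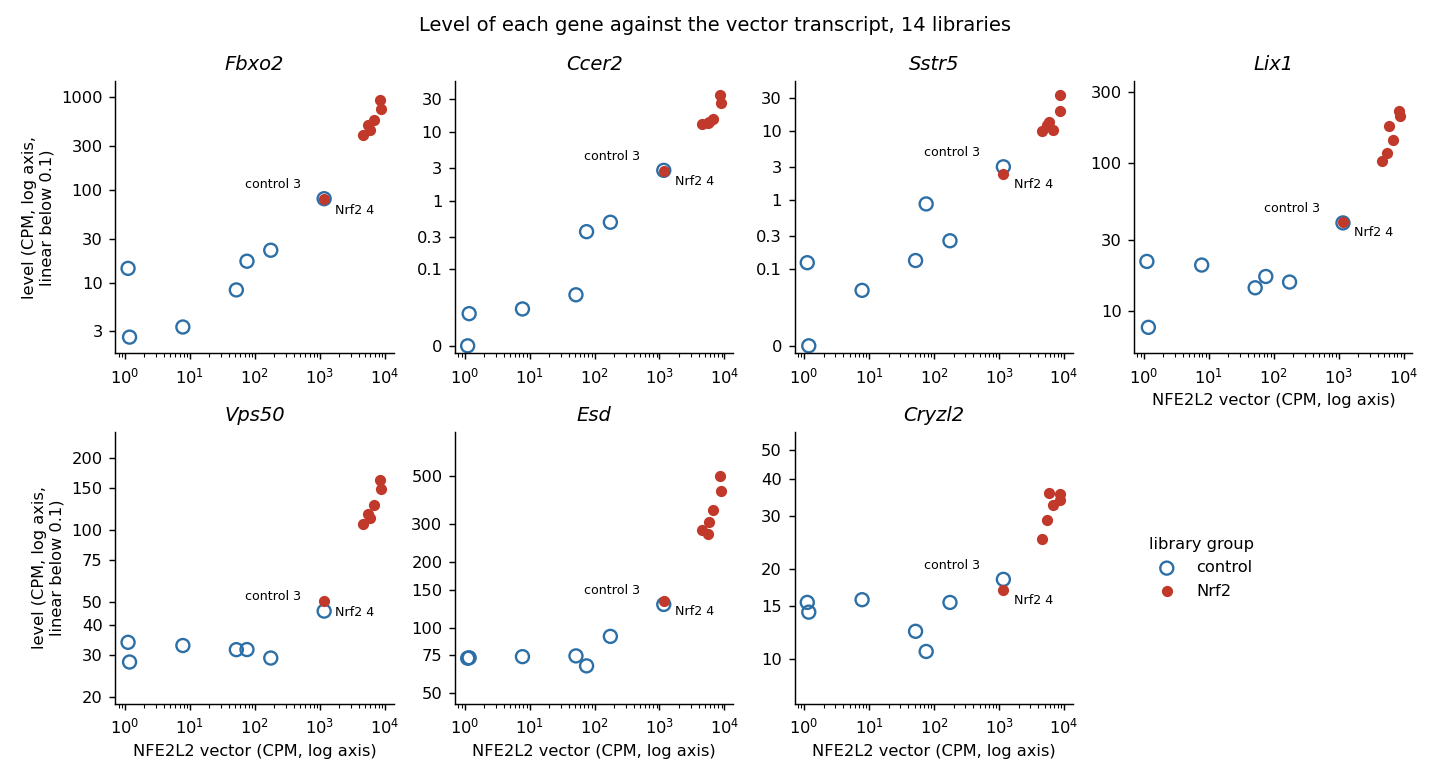
Level of each of the 7 genes against the NFE2L2 vector transcript, both in CPM on log axes (the gene axis linear below 0.1), with control eyes as open blue circles and Nrf2 eyes as filled red circles, 14 libraries. Control 3 and Nrf2 4 sit nearly on one point, at 1163 CPM of the vector transcript, between the other control and the other Nrf2 eyes.

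Genes related to the 7 by family, complex or enzyme step were listed by function, with earlier results of these data known. Most of them were not called. Of 45 such genes 41 passed the filter, and 2 of them were called higher and none lower, 4.88% beside the background of 3.43%. Their median log2 fold change was 0.13. Of the 41, 12 had an unadjusted p under 0.05 in the edgeR quasi-likelihood test, DESeq2 called 10 and limma voom called 12, where the shares over all genes were 18.1%, 11.9% and 15.9% in turn. Without mice 3 and 4 the count was again 2, beside 4.5% of all genes called. It was 9 without mouse 4, where 12.6% of all genes were called, and 6 without the block for mouse, where 6.75% were called.

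For Fbxo2 these were the other F-box genes of its family, not all of which need bind glycans, and the SCF ligase core and ER disposal machinery. Of the 4 F-box paralogs none was called by the edgeR quasi-likelihood test (2 at an unadjusted p under 0.05, 1 by DESeq2, 1 by voom), and of 9 SCF core and ER disposal genes none was called either (2, 2 and 2). Fbxo44, the closest neighbour, had a log2 fold change of 0.45 (SE 0.14, edgeR adjusted p = 0.14), with 76.5 ± 8.27 CPM in Nrf2 and 62.8 ± 14.5 CPM in control eyes (SD, n = 7). Fbxo44 passed in 3 of 15 alternatives: DESeq2 (adjusted p = 0.045), voom (adjusted p = 0.011) and edgeR without mouse 4 (adjusted p = 0.026). Fbxo6 had a log2 fold change of -0.04 (SE 0.13). The adaptor Skp1a, which links F-box proteins to the cullin and was named after its value was seen, had a log2 fold change of 0.42 (SE 0.12, edgeR adjusted p = 0.11).

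The partners of Vps50 were Vps51, Vps52 and Vps53, shared between EARP and GARP, Vps54, which takes the place of Vps50 in GARP, and Eipr1, which interacts with EARP. None of the 5 was called (1 at an unadjusted p under 0.05 in the edgeR quasi-likelihood test, 1 by DESeq2 and 1 by voom). Their log2 fold changes were -0.26 for Vps51, -0.15 for Vps52, 0.05 for Vps53, -0.08 for Vps54 and 0.09 for Eipr1. Vps51 had 40.2 ± 5.78 CPM in Nrf2 and 52.7 ± 6.52 CPM in control eyes (SD, n = 7), lower in 7 of 7 mice, with an edgeR adjusted p of 0.14. Vps51 passed with DESeq2 (adjusted p = 0.036) and with voom (adjusted p = 0.049).

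The somatostatin ligand genes and the other receptor genes were scarce, but the inhibitory G alpha genes were not. Gnai1, Gnai2 and Gnai3 had means of 35.3, 356 and 149 CPM in Nrf2 eyes and 38.5, 365 and 166 CPM in control eyes. Of 9 ligands, receptors and inhibitory G alpha subunits 6 were tested, and none was called by the edgeR quasi-likelihood test, by DESeq2 or by voom, or had an unadjusted p under 0.05. The ligand genes Sst and Cort and the receptor Sstr3 did not pass the filter, Sst reaching at most 3 counts in a Nrf2 eye and 23 in a control eye. The log2 fold changes of the other receptors were -0.88 (SE 0.75) for Sstr1, 0.32 (SE 0.76) for Sstr2 and -0.07 (SE 0.65) for Sstr4, with mean levels of 2.12 CPM or less in either group. The paired differences of Sstr4 ran from -1.50 to 4.06 between mice. Among the paralogs, Lix1l had a log2 fold change of 0.13 (SE 0.33), and Ccer1 had no count in any library.

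For Esd, the list held the enzymes of formaldehyde, formate and methylglyoxal clearance, and 1 of 7 was called, beside 3.43% of all genes. In the edgeR quasi-likelihood test 4 of the 7 had an unadjusted p under 0.05. DESeq2 called 4, voom 4 and edgeR without the block for mouse 4. The shares over all genes were 18.1%, 11.9%, 15.9% and 6.75% in turn. Glo1, the glutathione-dependent enzyme that removes methylglyoxal, rose by 0.51 on the log2 scale (SE 0.10, edgeR adjusted p = 0.035), from 152 ± 23.9 to 197 ± 27.6 CPM (SD, n = 7), higher in 7 of 7 mice. Its log2 fold change stayed between 0.47 and 0.56 when any one mouse was left out, but the call did not. Leaving out any one mouse other than mouse 4 raised its edgeR adjusted p to between 0.0502 (mouse 2) and 0.133 (mouse 7), it was 0.060 without mice 3 and 4, and over all alternatives it ran from 2.3e-04 to 0.133. Adh5, which makes the S-formylglutathione that Esd cleaves, had 239 ± 37.6 CPM in Nrf2 and 178 ± 23.5 CPM in control eyes (SD, n = 7). Its log2 fold change of 0.55 (SE 0.13) did not pass with all mice (edgeR adjusted p = 0.060). It passed in 5 of 15 alternatives. These were edgeR without mice 3 and 4 (adjusted p = 0.040), without mouse 4 (0.0044) and without the block for mouse (0.014), DESeq2 (0.0048) and voom (0.0035). Leaving out any one mouse other than mouse 4 gave an edgeR adjusted p between 0.082 (mouse 2) and 0.195 (mouse 1). The largest log2 fold change was 0.74 for Aldh1l1, a formyltetrahydrofolate dehydrogenase (edgeR adjusted p = 0.067), a gene chosen after its value was seen. The log2 fold changes of the 7 enzymes ran from 0.09 to 0.74, beside 2.03 for Esd.

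For Cryzl2, 1 of 9 related reductases was called (3 at an unadjusted p under 0.05 in the edgeR quasi-likelihood test, 2 by DESeq2 and 4 by voom). Ptgr1, a prostaglandin and leukotriene reductase, rose by 3.61 on the log2 scale (SE 0.49, edgeR adjusted p = 0.011), more than Cryzl2 itself. Its level ran from 340 to 2079 CPM (median 1341) in Nrf2 eyes and from 29.7 to 352 CPM (median 92.4) in control eyes, so the groups overlapped slightly, and it was higher in 7 of 7 mice. It passed the 0.05 threshold without mice 3 and 4 as well (edgeR adjusted p = 0.021). Cryz, zeta-crystallin, had a log2 fold change of 0.39 (SE 0.14, edgeR adjusted p = 0.18) and Cryzl1 one of -0.01 (SE 0.11). Cryz passed in 2 of 15 alternatives, voom (adjusted p = 0.045) and edgeR without mouse 4 (adjusted p = 0.048).

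The 7 genes were next set beside their neighbours on the chromosome, the nearest 2 tested protein-coding genes on each side. Genes that were not tested were passed over, so the nearest tested gene need not adjoin. Among the nearest, Zfp97 lay 256 kb from Lix1 and Gngt1 390 kb from Vps50. Of 27 neighbours 1 was called, lower, which is 3.70% beside the background of 3.43%. Their median log2 fold change was -0.05, and 8 had an unadjusted p under 0.05, a limit met by 18.1% of all genes. DESeq2 called 6 of the 27 and voom 7, where the shares over all genes were 11.9% and 15.9% in turn. The called gene was Disp3, a dispatched-family membrane protein gene 73.8 kb from Fbxo2, with a log2 fold change of -5.26 (SE 0.83, edgeR adjusted p = 0.016) and lower in 7 of 7 mice. It was scarce, at 0 to 0.449 CPM in Nrf2 eyes (median 0) and 0.0241 to 7.53 CPM in control eyes (median 1.07), with at most 11 counts in any Nrf2 library. Its edgeR adjusted p was 0.058 without mouse 1, 0.053 without mouse 5 and 0.055 without mouse 7, and without mouse 4, or without mice 3 and 4, it did not pass the filter.

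The edgeR test called no other neighbour. On the far side of the 138 bases printed in capitals, Fbxo44 is transcribed away from Fbxo2, and with 0.45 its log2 fold change was well under the 5.30 of Fbxo2. Nearest to Ccer2 were Sars2 (0.04) and the overlapping Nfkbib (0.26), and nearest to Sstr5 were Cacna1h (-1.90, SE 0.77) and Sox8 (0.38, SE 0.41), all as log2 fold changes. Cacna1h, at -1.11 without mice 3 and 4, passed with DESeq2 (adjusted p = 0.025) and with voom (adjusted p = 0.031). Lix1 lay between Zfp97 (0.29) and Lnpep (-0.19), Esd between Htr2a (-0.88, SE 0.65, or -0.48 without mice 3 and 4) and Lrch1 (-0.23), and Cryzl2 between Rasal2 (-0.60, SE 0.25) and Sec16b (-0.05). Without mice 3 and 4, Sox8 had 0.72, Lnpep -0.40, Rasal2 -0.89 and Samd9l -1.66, and none of these passed. With only mouse 4 left out, Rasal2 (-0.80, edgeR adjusted p = 0.029) and Samd9l (-1.65, edgeR adjusted p = 0.022) passed, and in no other alternative. Vps50 lay between Samd9l (-1.19, SE 0.62) and Gngt1 (-3.21, SE 0.99), the latter a subunit of rod transducin with 2.73 ± 3.95 CPM in Nrf2 and 29.0 ± 32.1 CPM in control eyes (SD, n = 7) and an edgeR adjusted p of 0.14. Gngt1 passed with DESeq2 (adjusted p = 1.2e-04), with voom (adjusted p = 0.0060) and with edgeR without the block for mouse (adjusted p = 0.044). The rod markers named above, in lower amount in 6 of 7 Nrf2 eyes, moved with Gngt1, and their part in its values was not tested. Annotated antisense or unclassified transcripts overlap Lix1 (Gm26873) and Vps50 (Gm43294) and were not analysed here.

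**Figure D4:**
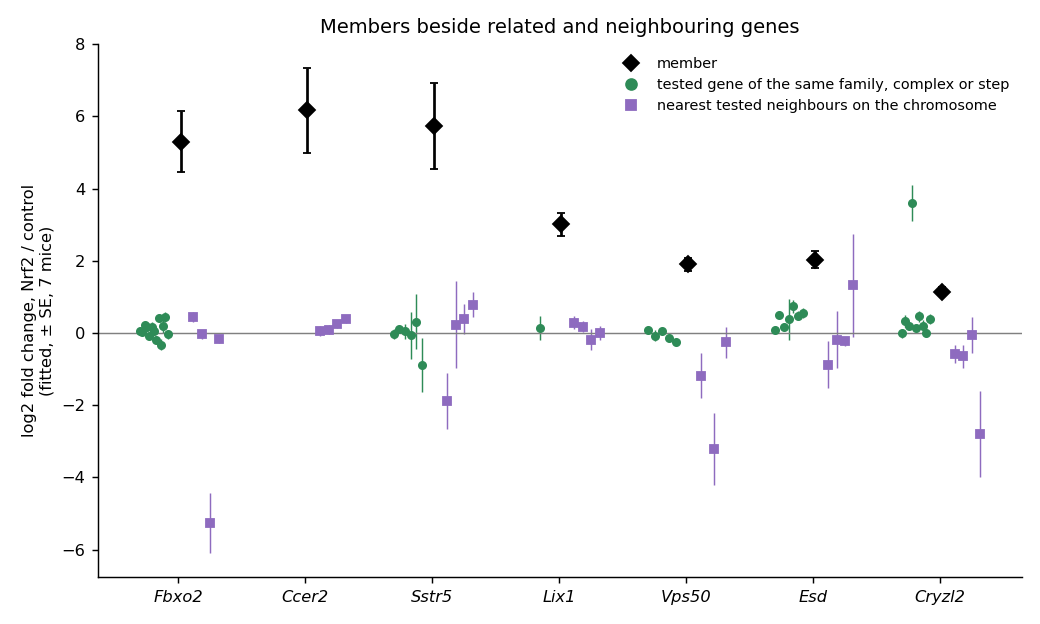
Fitted log2 fold change (Nrf2 over control, ± SE, 7 mice) of each of the 7 genes (black diamonds), of the tested genes listed with it by family, complex or step (green circles) and of its nearest tested neighbours (purple squares). Apart from Ptgr1, at 3.61 in the Cryzl2 column, and the neighbour of Esd with an SE of 1.43, no green or purple point lies above a log2 fold change of 1, while all 7 genes lie above it.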

How the data were processed

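Poly(A) RNA from the RPE of 7 rd1 mice, both eyes each, gave 14 libraries. The table deposited by the authors holds an estimated count for each gene and library, rounded to whole numbers and not scaled. The authors quantified transcripts with Salmon 0.9.1 and summed them per gene (the labels' processing notes, with FastQC, and the study's methods, which name mm10 and Ensembl release 91). That the table holds this estimate, not the featureCounts run the methods also name, was inferred from its added vector row. Samples were grouped by the treatment label and paired by the labels' individual number, which names 1 mouse. Over 14114 genes, the deviations of the 2 eyes of a mouse from their group means correlated between -0.37 and 0.36.

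Here genes were kept by filterByExpr (minimum count 10), scaled by TMM (factors 0.868 to 1.15) and tested with edgeR 4.0.16 in R 4.3.3 (quasi-likelihood F-test, mouse and treatment as terms, 6 residual degrees of freedom, threshold 0.05), on simulated data first. Standard errors of fold changes are their size divided by the square root of F. CPM uses library totals, and paired differences use TMM and a prior count of 2. Alternatives were no block for mouse, 2 other scalings, DESeq2 1.42.0, voom with quality weights in limma 3.58.1, 2 other filters, a stricter threshold and leaving out mice. Gene positions and exon lengths came from GENCODE M21, which matched 34401 of the 34452 gene identifiers. The genes described and the lists around them were chosen with earlier results of these data known. Named were the 7 genes, the vector and mouse transcript of Nrf2, listed genes past the threshold, fixed paralogs and partners whatever their change, the nearest neighbours and the 2 genes of most similar pattern. A comparison of protein sequences was planned and not run, since no protein table was used here.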

Additional observations from a re-analysis of the deposited data

Results flagged for a closer look

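In 24 groups of 7 eyes (the 7 genes and a few related transcripts, Nrf2 and control eyes apart), a library was looked for that lay far from the nearest other for the range of its group, by Dixon's criterion, which chance meets in about 1 of 20 groups. It was met in 6 groups, each time by the same library, control 3, as the highest control eye. That eye held 1163 CPM of the NFE2L2 vector transcript, 80.8 CPM of Fbxo2, 2.75 CPM of Ccer2, 3.05 CPM of Sstr5, 45.9 CPM of Vps50 and 128 CPM of Esd. These values come from 1 library and so are not independent of each other.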

How the results depend on the processing

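The fitted log2 fold changes of the 7 genes kept their sign in 105 of 105 values. The genes were picked for a rise in these same libraries, so the kept sign follows from the choice and is no evidence about them. Over the alternatives the values ran from 5.10 to 7.85 for Ccer2, 4.62 to 7.33 for Sstr5 and 4.76 to 6.33 for Fbxo2. They ran from 2.84 to 3.49 for Lix1, 1.89 to 2.28 for Esd, 1.80 to 2.14 for Vps50 and 1.07 to 1.22 for Cryzl2. The count of genes called moved from 559 to 1943 with DESeq2, 2590 with voom, 347 with no filter and 56 at a threshold of 0.01. It was 2050 without mouse 4 and 111 without mouse 7, the range when leaving out 1 mouse. Without the block for mouse it was 1100, with 6 of the related genes called, 4 in the Esd list, 1 in the SCF list and 3 neighbours, and the block changed no other count by over 1.5 times. DESeq2 and voom called 11.9% and 15.9% of all genes in turn. With them the count was 10 and 12 over all related genes, 4 and 4 for the Esd list and 2 and 4 for the Cryzl2 list. It was 2 and 2 for SCF and ER disposal, 1 and 1 for the F-box paralogs, 1 and 1 for EARP and GARP, and 6 and 7 for neighbours. Upper-quartile scaling, and likewise no filter, gave 1 related gene and 0 in the Esd list. At 0.01 these 2 counts, the Cryzl2 list and the neighbours were at 0, and the neighbours also without mice 3 and 4. Leaving out 1 mouse gave 1 to 9 related genes, 0 to 4 in the Esd list, 1 to 3 in the Cryzl2 list, 0 to 1 in the SCF list, 0 to 1 F-box paralogs and 0 to 5 neighbours, the highest each time without mouse 4. Signs turned in genes that were not called. Cryzl1 had 0.00099 with RLE scaling, 0.00042 with DESeq2, 0.012 without mice 3 and 4, and -0.071 to 0.043 without 1 mouse. Lix1l had -0.23 with voom, and -0.19 to 0.26 without 1 mouse. Sstr2 had -0.093 without the block and -0.17 to 0.64 without 1 mouse, and Sstr4 had 0.089 without the block, 0.069 without mice 3 and 4, and -0.56 to 0.22. Sec16b had 0.052 without mice 3 and 4 and -0.36 to 0.28 without 1 mouse, where Fbxo6 had -0.11 to 0.040 and Sars2 -0.028 to 0.084. The cause was not tested. Of the other values for named genes outside the 7, 402 kept their direction and side of the threshold, 20 gained a call and 15 lost one. With library totals in place of TMM, the median paired log2 difference of all genes was -0.16 in place of -0.03. Depth limits Ccer2 and Sstr5 in control eyes, the somatostatin ligand genes and the other somatostatin receptor genes.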

Other observations

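Myod1, a transcription factor of muscle, was, outside the 7 genes, the gene whose differences between the eyes lay closest to those of both Fbxo2 and Sstr5. Its level ran from 0.980 to 20.97 CPM in the Nrf2 eyes (median 6.10) and from 0 to 0.877 CPM in the control eyes (median 0.106). Markers of skeletal muscle summed to 11.9 to 239 CPM in the Nrf2 eyes and 11.1 to 240 CPM in the control eyes, with lower sums in the Nrf2 eye of 5 of 7 mice, and none of the 5 was called by the edgeR quasi-likelihood test.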
